A study of Arabidopsis thaliana with 12 samples.

Results

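Among the exons that differed between gold-treated and control roots of Arabidopsis, 1532 were the sole changed exon of their transcript cluster, the array's unit for a gene, and that cluster was missing from the list of genes changed as a whole. They were selected by rule from the deposited tables. An exon was kept when it carried a chromosome, when its transcript cluster was absent from the gene-level table, and when that cluster occurred once in the exon table. The exon table held 4977 exons, 4900 of them with a chromosome, so the lone exons were chosen on the same measured signals that describe them here. The other exons with a chromosome were 2248 exons of genes listed at the gene level and 1120 exons of unlisted genes with several changed exons. Direction and signal level are therefore given as a description with no test.

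In the gold group, 12-day-old Col-0 seedlings grown hydroponically in MS medium had their roots in a 10 ppm solution of gold (HAuCl4) for 12 h. In the control group, parallel seedlings stood in distilled water for the same time. Both solutions were at pH 4.2 and held no nutrient medium, so the controls were deprived of nutrients too. Root RNA of 3 biological replicates per group, each pooled from many seedlings, was hybridised to AraGene-1_0-st arrays. Each of the 6 arrays was deposited as 2 samples, 1 summarised per gene and 1 per exon. Each exon has 1 average log2 signal per group, without a spread between arrays. The signals of individual arrays were not used here, and neither an SD nor an overlap of the groups can be given. In whole roots, fewer cells of a type and less RNA per cell cannot be told apart.

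A plant gene is transcribed as a chain of exons that are joined by splicing, and alternative first exons, last exons or splice sites can put an exon into some transcripts of a gene and not into others. Exon arrays measure each exon with its own probes and combine all of them for the gene value. A single exon can therefore pass a criterion that the gene as a whole does not. A probe set near the array's background, or one that binds a related transcript, can also stand apart from the rest of its gene.

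Of the 1532 lone exons, 848 (55.4%, 95% Wilson interval 52.9 to 57.8) were lower in gold and 684 (44.6%) were higher. Over all 4900 changed exons, 45.1% were lower and 54.9% were higher. In unlisted genes with several changed exons 61.7% were lower, and in listed genes 29.8%. The lone exons thus stood nearer to the unlisted genes with several exons than to the listed genes, in a comparison that the rule itself sets up. The intervals here cover counting error only, and exons of 1 gene or family are not independent.

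Differences were small in most lone exons. The median difference, gold minus control on the log2 scale, was 1.22 for the exons higher in gold and -1.20 for those lower in gold. In 987 lone exons (64.4%) the group averages were less than 2.5-fold apart, and 299 (19.5%) were at least 3-fold apart, against 32.1% of all 4900 changed exons. The shares at 3-fold or more were 17.7% in unlisted genes with several changed exons and 47.9% in listed genes. No lone exon lay below a log2 difference of 1.00 in size, since the authors listed exons from a 2-fold change upward. A difference of 1.00 in size was found in 6 lone exons, 3 in each direction, among them LHCB2.1, at 3.88 in gold and 2.88 in control, and AT3G10880, at 3.21 in gold and 4.21 in control.

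**Figure D1:**
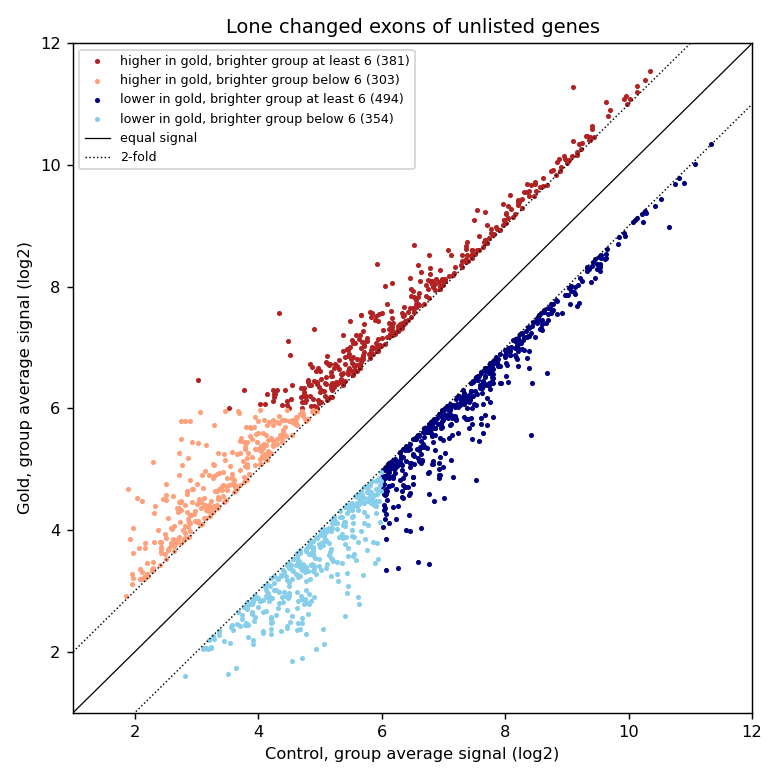
Group average signal of the 1532 lone exons, control on the horizontal and gold on the vertical axis (both log2), 1 point per exon, with lines for equal signal and for a 2-fold difference. The points lie along the 2-fold lines over the whole range of signal, and the widest distances from them are at low and middle signal.

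Many lone exons were dim. The brighter of the group averages was at least 6 on the log2 scale, taken here as clearly measured, in 875 lone exons (57.1%, 54.6 to 59.6) and lower in 657 (42.9%). Over all 4900 changed exons, 78.9% reached 6. The shares were 81.2% in unlisted genes with several exons and 92.5% in listed genes. The median brighter signal was 6.31 for lone exons, 7.66 for unlisted genes with several exons and 8.68 for listed genes. By direction and level, 381 lone exons were higher in gold and bright, 303 higher and dim, 494 lower and bright, and 354 lower and dim. Around the level of 6, RABH1c (6.00 in gold, 4.50 in control) and AT1G80140 (6.01 in gold, 4.71 in control) were just inside, and AT4G28160 (4.65 in gold, 5.99 in control) and AT3G53590 (4.96 in gold, 5.99 in control) just outside.

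**Figure D2:**
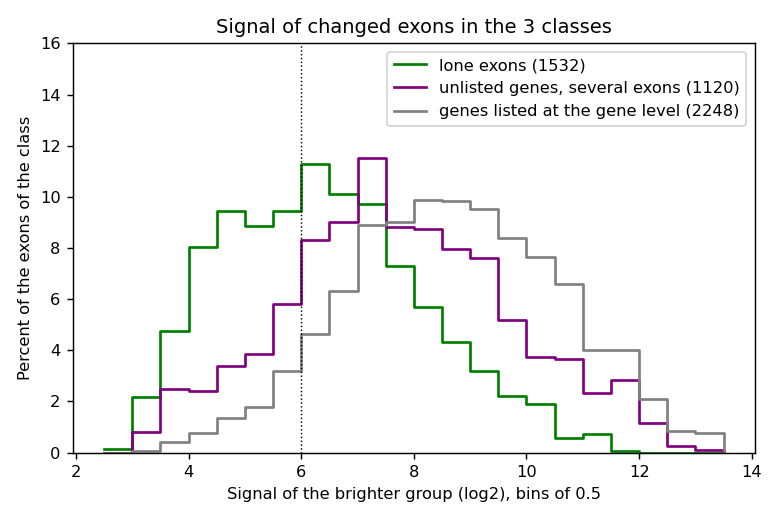
Signal of the brighter group (log2, bins of 0.5) as percent of the exons in each class, for 1532 lone exons, 1120 exons of unlisted genes with several changed exons and 2248 exons of listed genes, with a dotted line at 6. The median lies at 6.31 for lone exons and at 8.68 for listed genes.

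The larger the difference, the more often the exon was dim. Of the 835 lone exons with a difference from 1 to under 1.25 in size, 35.9% (32.7 to 39.2) stayed below 6 in both groups. The share was 47.6% of 328 exons from 1.25 to under 1.5, 51.9% of 270 exons from 1.5 to under 2, and 61.6% (51.8 to 70.6) of 99 exons from 2 upward. Exons higher and lower in gold did so alike, with 65% and 59.3% dim among those from 2 upward. The brighter group in these 99 exons had a median signal of 5.76, against 6.80 in the exons with the smallest differences. For the dimmer group the medians were 3.26 and 5.67, a gap that includes the difference by which the exons were sorted. In a part of the largest fold changes 1 group lay near the bottom of the signal range. Whether those exons are absent there or only weakly measured was not tested.

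Direction also varied with signal, without a steady course. Lower in gold were 53.7% of the 376 exons below 5 and 54.1% of the 281 exons from 5 to under 6. The share was 59.1% of 328 exons from 6 to under 7 and 61.3% (55.3 to 67) of 261 from 7 to under 8. It was 54.9% of 153 exons from 8 to under 9, and 42.1% (34.1 to 50.6) of 133 exons from 9 upward. Among these brightest lone exons 77 were higher and 56 lower in gold.

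The largest differences among clearly measured exons of a single named locus are given next, and they set the range of the lone exons. ELI3-2 (AT4G37990), a cinnamyl alcohol dehydrogenase of the pathogen-inducible ELI3 type, was at 6.46 in gold and 3.03 in control, a difference of 3.43. CSLG2 (AT4G24000), a cellulose synthase-like glycosyltransferase, was at 7.57 in gold and 4.34 in control. PDLP1 (AT5G43980), a membrane protein of plasmodesmata, the channels between plant cells, was at 7.10 in gold and 4.48 in control. The SINA-like ubiquitin ligase AT1G66610 was at 6.31 in gold and 3.76 in control.

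UGT74E2 (AT1G05680), a glucosyltransferase known to act on the auxin precursor indole-3-butyric acid, was the brightest of these, at 8.37 in gold and 5.92 in control. CIPK3 (AT2G26980), a kinase that works with calcineurin B-like calcium sensors, was at 6.01 in gold and 3.52 in control. The MATE efflux carrier AT2G04050 was at 7.30 in gold and 4.90 in control. ATG8B (AT4G04620), a ubiquitin-like protein that coats autophagosomes, was at 6.87 in gold and 4.52 in control. In all 8 the control average was below 6, so only the gold average reached the level taken here as clear.

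On the lower side, the MYB transcription factor MYB24 (AT5G40350), known for its role in stamens, led with 3.45 in gold and 6.76 in control, a difference of -3.31. A second transcript cluster of the same locus was also a lone exon, at 3.59 in gold and 5.14 in control. The potassium efflux antiporter KEA5 (AT5G51710) was at 3.47 in gold and 6.58 in control. The leucine-rich repeat kinase AT3G46370 was at 3.37 in gold and 6.27 in control. The gold averages of all 3 genes' leading exons lay near the bottom of the signal range.

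CYP79F1 (AT1G16410), the cytochrome P450 that starts the synthesis of aliphatic glucosinolates from elongated methionine, was the brightest of the exons with large differences on this side, at 5.56 in gold and 8.42 in control, which is 7.26-fold lower in gold. The exon of CYP83A1, the next enzyme of that pathway, named here after its value was seen, was at 9.45 in gold and 10.52 in control. GlcNA.1UT1 (AT1G31070), which makes the sugar nucleotide UDP-N-acetylglucosamine, was at 4.82 in gold and 7.53 in control. CAM8 (AT4G14640), a calmodulin-like calcium sensor, was at 4.52 in gold and 7.01 in control. AT3G59870, of undescribed function, was at 3.34 in gold and 6.07 in control. AT1G30660, described as a nucleic acid binding protein, was at 3.98 in gold and 6.46 in control. In all 8 of the largest falls with a clear signal the gold average was below 6, so only the control average reached that level.

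Dim exons had differences of the same size. Higher in gold were the RING-finger gene AT3G18930 (5.79 in gold, 2.75 in control), the kinase AT2G43230 (5.80 in gold, 2.82 in control), KIN11 (5.80 in gold, 2.90 in control), a catalytic subunit of the energy sensor SnRK1, and CYP82C4 (5.94 in gold, 3.06 in control), a P450 of coumarin synthesis under iron deficiency. Lower in gold were CSLC12 (2.13 in gold, 5.06 in control), a glucan synthase of the xyloglucan backbone, the formin AT5G07760 (2.79 in gold, 5.63 in control), the argininosuccinate lyase AT5G10920 (2.58 in gold, 5.40 in control) and the embryo-defective gene emb2737 (1.90 in gold, 4.71 in control). None of these 8 reached 6 in either group.

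Lone exons of 1442 clusters named 1 locus, 85 named 2 loci, 2 named 3 and 3 named none. All 1442 were found among protein-coding genes of the TAIR10.1 annotation, as 1440 distinct loci, since MYB24 and the oxygenase AT2G44800 each had a pair of clusters. The gene groups below were formed over these 1442 by words in their symbols and descriptions, so a group holds what its words catch, and a gene can stand in several. The 55.4% of lone exons lower in gold, or 55.5% (801) of these 1442, is the value against which each group is set. The groups left 748 genes without a place, of which 427 (57.1%) were lower in gold, and the 197 genes without a described function had 108 (54.8%) lower in gold.

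**Figure D3:**
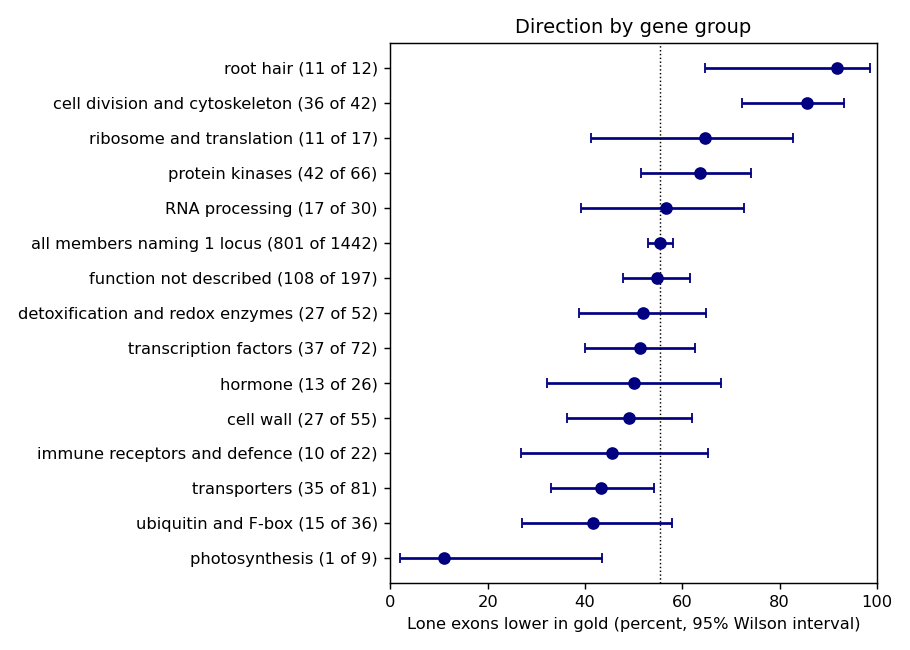
Percent of lone exons lower in gold in each gene group (points, with 95% Wilson intervals and the counts beside the names), with a dotted line at the value of all 1442 exons that name 1 locus. The points run between 91.7% for root hair genes and 11.1% for photosynthesis genes, and the intervals cover counting error only.

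Root hairs are tubular outgrowths of root epidermal cells, built by tip growth under a small set of transcription factors that switch on wall and cytoskeleton genes. Of the 12 lone exons in root hair genes, 11 were lower in gold, and the median difference of those 11 was -1.25, beside -1.20 for all lone exons lower in gold. Of the 11 with a clear signal, 10 were lower. A clear signal asks for 6 in the brighter group only, so this count is no separate check on direction. RHS6, RHS16, MRH2, RHS18 and RSL2 reached 6 in control alone, and RHS8 in gold alone. All 12 are named here, beyond the largest differences after their values were seen.

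Among the regulators, RSL4 (AT1G27740), the bHLH factor that sets root hair length, was at 6.20 in gold and 7.25 in control. Its relative RSL2 (AT4G33880) was at 4.73 in gold and 6.01 in control. Both exons were lower in gold, and RSL2 stayed just above the level of 6 in control alone.

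Among wall proteins, the root hair expansins EXPA7 and EXPA18, which loosen walls, were at 7.12 and 7.41 in gold, against 8.13 and 8.66 in control. LRX2 (AT1G62440), an extensin-like wall protein of root hairs, was the brightest of the group at 10.34 in gold and 11.34 in control. The peroxidase RHS18 was at 5.57 in gold and 6.58 in control. EXPA18 was 2.38-fold lower in gold, and the other exons of this set stood at the 2-fold limit of the list.

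Larger differences came from RHS6 (4.87 in gold, 7.16 in control) and RHS16 (3.85 in gold, 6.07 in control), both named for their root hair-specific expression. The kinesin-like MRH2, which acts on microtubules in root hair tips, was at 4.12 in gold and 6.12 in control, and MRH6 at 7.24 in gold and 8.28 in control. AT1G72960, a dim exon of a gene related to the GTPase ROOT HAIR DEFECTIVE 3, was at 2.56 in gold and 4.71 in control. RHS8 was the exception, at 6.53 in gold and 5.20 in control. Outside the lone exons, 6 of 6 root hair exons were lower in gold in 2 unlisted genes with several exons, beside 61.7% of all exons there. In 2 listed genes 4 of 4 were lower, beside 29.8%. Exons of 1 gene are not independent.

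The cell division and cytoskeleton group held 42 lone exons, 36 of them (85.7%, 72.2 to 93.3) lower in gold, with a median difference of -1.19 for those 36. Among the 29 with a clear signal, 26 were lower, a count that again includes exons clear in the brighter group alone. In unlisted genes with several changed exons all 30 exons of this group, from 10 genes, were lower, beside 61.7% of all exons there. In listed genes all 3, from 2 genes, were lower, beside 29.8%. Exons of 1 gene are not independent. The word search also placed chromatin genes in this group, among them HDA15, HDA18, ATXR2 and ATXR6, all lower, and MEA and hda17, both higher. The members of the group named in the next paragraphs, other than the largest differences, were chosen after their values were seen.

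Cyclins and their kinases drive the steps of the cell cycle. CYCA2;3 was at 4.05 in gold and 6.02 in control, CYCB1;1, a marker of the G2 to M transition, at 6.42 in gold and 7.91 in control, and CYCB2;3 at 7.61 in gold and 8.63 in control. The plant-specific mitotic kinase CDKB1;2 was at 5.88 in gold and 7.11 in control. The replication licensing factor CDC6 was at 7.04 in gold and 8.19 in control, and the D-type cyclins CYCD4;1 and CYCD6;1 at 5.86 and 7.61 in gold, against 6.98 and 8.78 in control. Each of these 7 exons was lower in gold.

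Spindle and cytoskeleton genes were next. The spindle checkpoint protein MAD2 was at 6.98 in gold and 8.27 in control. The kinesins AT2G22610 and AT2G36200, motors that move along microtubules, were at 7.57 and 6.87 in gold, against 8.92 and 8.07 in control. The tubulin genes TUA4 and TUB1 were at 7.39 and 8.88 in gold, against 8.60 and 9.93 in control.

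The aurora kinase AUR2, which the word search placed with the kinases, was at 8.49 in gold and 9.52 in control. Among the 6 exons of the group that were higher in gold, the myosin XIC (6.31 in gold, 4.31 in control) and the formin AT1G42980 (7.52 in gold, 6.35 in control), both actin-related, had the largest differences with a clear signal.

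**Figure D4:**
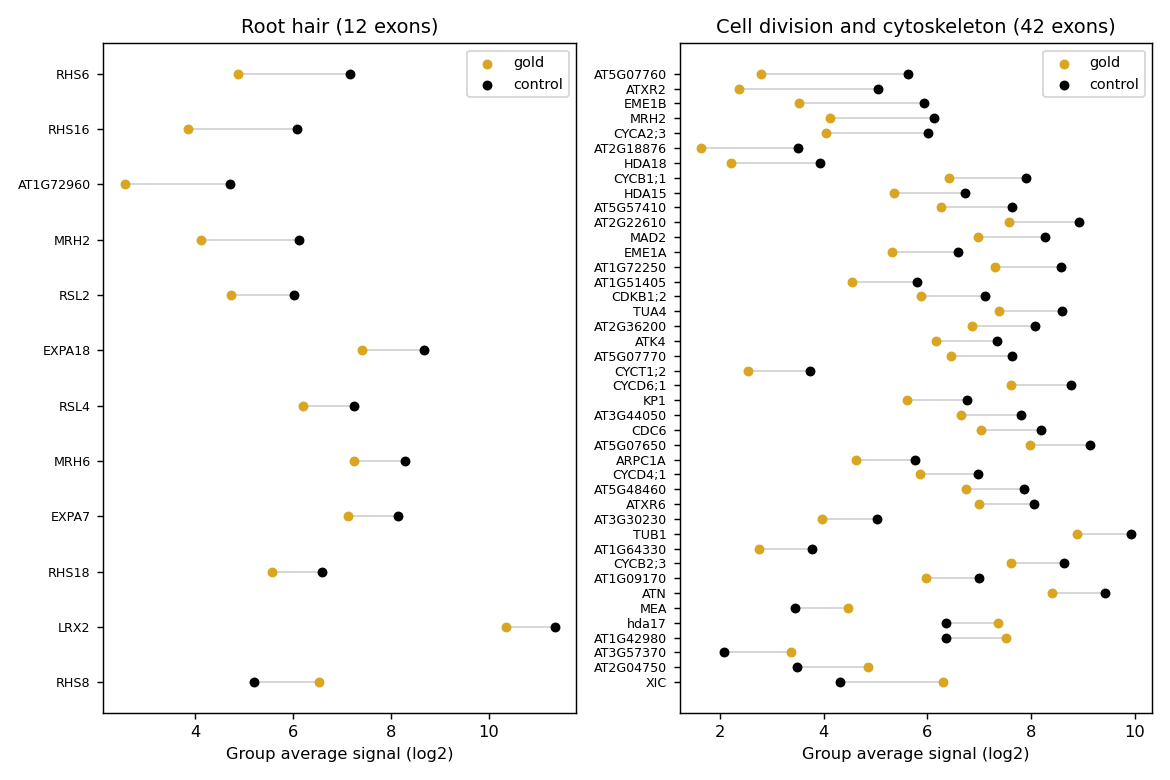
Group average signal (log2) of the lone exons of root hair genes (12) and of cell division and cytoskeleton genes (42), gold and control joined by a line for each gene. Gold lies left of control in 11 of 12 root hair exons and in 36 of 42 cell division and cytoskeleton exons.

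Protein kinases contributed 66 lone exons, 42 (63.6%, 51.6 to 74.2) of them lower in gold. That interval includes the 55.5% of all lone exons naming 1 locus. Many are receptor kinases with a leucine-rich repeat, such as AT2G28990 at 5.89 in gold and 7.67 in control. Higher in gold with CIPK3 was CPK30, a calcium-dependent kinase, at 7.57 in gold and 5.84 in control. The SnRK2 kinases AT1G78290 (SRK2C) and SNRK2.10, of a family that acts in osmotic stress and abscisic acid signalling, were at 7.50 and 7.59 in gold, against 5.83 and 6.53 in control, and were picked out after their values were seen. In unlisted genes with several exons 75.9% of 79 kinase exons were lower in gold, beside 61.7% of all exons there. In listed genes it was 68.4% of 95, beside 29.8%.

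Transporters were the largest functional group, with 81 lone exons, 35 (43.2%, 33 to 54.1) lower and 46 higher in gold. Among those with a clear signal, 23 were higher and 23 lower. The amino acid transporter AT5G16740 was at 6.30 in gold and 4.44 in control, the next difference with a clear signal on the higher side after AT2G04050. On the lower side PHO1;H1, a relative of the phosphate exporter PHO1, followed KEA5 with 5.10 in gold and 6.92 in control. In listed genes 27% of 211 transporter exons were lower in gold, near the 29.8% of all exons of listed genes.

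Metal carriers and other metal-related genes, chosen after their values were seen, went both ways. ZIF1, described as a zinc induced facilitator, was at 10.09 in gold and 9.04 in control. The zinc transporter ZIP5 was at 6.13 in gold and 7.43 in control, the zinc-exporting ATPase HMA2 at 5.13 in gold and 6.61 in control, and the manganese and iron carrier NRAMP1 at 8.47 in gold and 9.56 in control. The ferric reductases FRO2 and FRO1 were dim, at 2.86 and 4.32 in gold, against 3.92 and 5.33 in control. FRO4, also dim, differed in the opposite direction, at 4.72 in gold and 3.41 in control.

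Detoxification and redox enzymes (P450s, glutathione enzymes, glycosyltransferases, peroxidases, thioredoxins and related oxygenases) were balanced, with 27 of 52 lone exons (51.9%) lower in gold. In listed genes 21.5% of 223 exons of this group were lower, beside 29.8% of all exons of listed genes. Among exons with a clear signal, the next difference on the higher side after UGT74E2 was that of the oxygenase AT2G44800, whose pair of clusters stood at 6.23 and 9.09 in gold, against 4.25 and 7.49 in control. On the lower side were peroxidase 45 (AT4G30170) at 5.01 in gold and 6.92 in control, and the oxygenase AT3G49630 at 4.26 in gold and 6.07 in control.

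Transcription factors were likewise balanced, with 37 of 72 (51.4%) lower in gold, and in listed genes 13.2% of 114 exons were, beside 29.8% of all exons there. NAC3 was at 6.38 in gold and 4.55 in control. PIL6, which the table describes as the phytochrome-interacting factor PIF5, was at 7.39 in gold and 5.72 in control. RAP2.7, an AP2-type factor known as a repressor of flowering, was at 6.70 in gold and 8.21 in control.

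The hormone group, of which RAP2.7 is also a member by its description, split into 13 higher and 13 lower. In listed genes 9.59% of 73 hormone exons were lower in gold, beside 29.8% of all exons there, and in unlisted genes with several exons 14.3% of 21, beside 61.7%. ABI5 (AT2G36270), a bZIP factor of the abscisic acid response, was at 7.21 in gold and 5.58 in control. The SAUR-type auxin gene AT5G20810 was at 6.62 in gold and 4.93 in control. GA3OX2, which makes active gibberellin, was at 6.74 in gold and 8.01 in control.

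Abscisic acid 8'-hydroxylases break that hormone down, and 3 of them had a lone exon, all dim and chosen after their values were seen. CYP707A1 was at 5.18 in gold and 2.86 in control, and CYP707A4 at 4.08 in gold and 3.06 in control. CYP707A2 was at 2.61 in gold and 4.28 in control, the opposite direction.

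The hormone group held 12 transcription factors described as ethylene-responsive, 7 higher and 5 lower in gold. The genes named from them here were chosen after their values were seen. ERF1 (9.19 in gold, 8.01 in control), ERF5 (6.88 in gold, 5.69 in control) and RAP2.6 (11.09 in gold, 10.02 in control) were higher. RAP2.6 was among the brightest of all lone exons. Besides RAP2.7, AT1G21910 was lower, at 8.33 in gold and 9.53 in control, as were the dim ERF110 (2.67 in gold, 4.12 in control) and AT1G72570 (3.76 in gold, 4.84 in control). The dim SHN1, a regulator of wax synthesis from the same protein family, was at 2.83 in gold and 4.86 in control.

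Cell wall genes split into 28 higher and 27 lower of 55. After CSLG2, the larger differences with a clear signal were GSH1 (7.53 in gold, 5.67 in control) on the higher side, and GRP9 (6.58 in gold, 8.67 in control) and the xyloglucan fucosyltransferase FUT5 (6.07 in gold, 7.49 in control) on the lower. GSH1 encodes the first enzyme of glutathione synthesis and stands here because its cluster's description also names a xyloglucan enzyme. The cluster names 1 locus, AT4G23100, that of GSH1, though the description alone does not assign its exon signal to either gene. Direction in this group followed no single course, and 3 of its exons lower in gold were those of EXPA7, EXPA18 and LRX2.

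Photosynthesis genes were few and mostly higher in gold, with 8 of 9 higher. Those with a clear signal were HCF107 (7.29 in gold, 6.02 in control), the Rubisco activase-like AT1G73110 (6.11 in gold, 4.76 in control), the light-harvesting protein LHCA2 (6.77 in gold, 5.67 in control) and CH1 (9.30 in gold, 8.27 in control), which makes chlorophyll b. The dim ones were PSAD-2 (4.46 in gold, 2.93 in control), PSBP-2 (5.96 in gold, 4.95 in control), RCA (3.43 in gold, 2.40 in control) and LHCB2.1. PQL2, at 4.13 in gold and 5.97 in control, was the single one that was lower. The light-harvesting, photosystem and Rubisco activase genes among them stayed under 7 in both groups, and whether shoot material differed between the groups was not tested.

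The remaining groups are given in brief. Of the 30 exons in RNA processing genes, 17 were lower in gold, 18 were dim by the level of 6, and AT1G66510, a splicing factor of the AAR2 type, was at 6.60 in gold and 5.18 in control, against pseudouridine synthase AT3G04820 at 6.44 in gold and 8.04 in control. Of the 17 in ribosome and translation genes, 11 were lower, and the initiation factor subunits TIF3B1 (6.09 in gold, 4.99 in control) and AT2G46290 (5.01 in gold, 6.20 in control) differed in opposite directions. Of the 36 in ubiquitin and F-box genes, 15 were lower, and the RING protein AT4G23450 was at 6.31 in gold and 4.24 in control. Of the 22 in immune receptor and defence genes, 10 were lower, with the homeodomain gene PRHA at 6.77 in gold and 5.09 in control and the lectin AT1G60110 at 5.44 in gold and 6.83 in control. No lone exon matched a mobile element.

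Gene length and annotated transcripts were not used by the rule and are set side by side without a test. The median length of the lone-exon genes was 2621 bases, against 2078 for all 27444 protein-coding genes of the nuclear chromosomes in TAIR10.1. It was 3100 in unlisted genes with several changed exons and 1950 in listed genes. Of the 1440 genes, 762 (52.9%, 50.3 to 55.5) had 2 or more RefSeq transcripts, against 39% (38.4 to 39.6) of all protein-coding genes. The shares were 58.6% in unlisted genes with several exons and 34.9% in listed genes. Bright and dim lone exons came from genes with 53.6% and 52% such shares.

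Longer genes have more annotated transcripts, so the shares were set side by side within 4 classes of gene length that hold equal numbers of protein-coding genes. In the shortest class, 26% (19.7 to 33.4) of 154 lone-exon genes had 2 or more transcripts, against 10.3% (9.63 to 11.1) of all genes. In the next class it was 40.9% (35.6 to 46.5) of 308, against 32.9%. In the class after that it was 54% (49.2 to 58.8) of 411, against 49.6%, and in the longest 66% (62 to 69.7) of 567, against 63.1% (62 to 64.2). The gap was widest in the shortest genes, and in both upper classes it was small beside the intervals. Lengths were not matched within a class. In the shortest, lone-exon genes ran from 369 to 1305 bases and all genes from 3 to 1323. All annotated protein-coding genes were counted, whether or not they were measured in roots. The longest class held 39.4% of the lone-exon genes. The number of measured exons per gene was not used here, and its part in these shares was not tested.

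**Figure D5:**
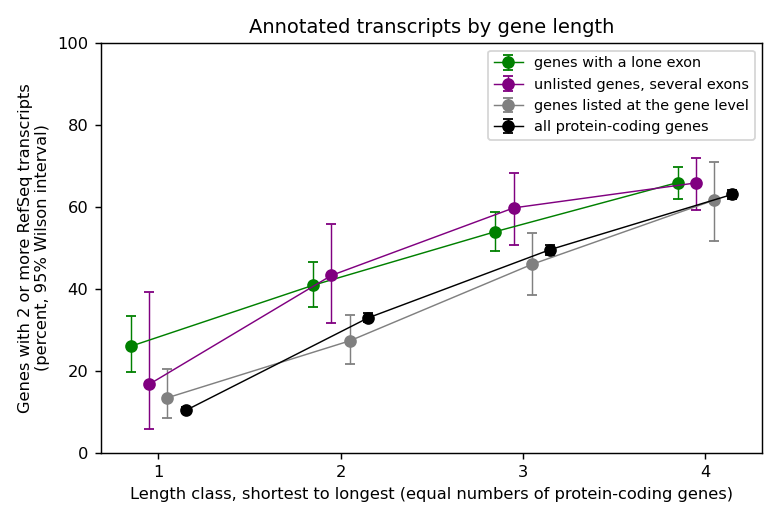
Percent of genes with 2 or more RefSeq transcripts (points, with 95% Wilson intervals) in each of 4 length classes, shortest to longest, for lone-exon genes, unlisted genes with several changed exons, listed genes and all protein-coding genes. Lone-exon genes stand at 26% in the shortest class, against 10.3% for all protein-coding genes, and at 66% in the longest, against 63.1%. Lengths are not matched within a class.

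Lone exons were spread over all 5 chromosomes. Lone-exon genes made up between 4.52% of the protein-coding genes, on chromosome 3, and 5.65%, on chromosome 2. The share lower in gold lay between 51.6% on chromosome 5 and 57.8% on chromosome 2.

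Some lone-exon genes lay beside a gene listed at the gene level. Of the 1440 genes, 75 (5.21%) had such a gene as the adjacent protein-coding gene, against 992 of 25413 (3.9%) protein-coding genes that were neither listed nor held a lone exon, and 34 of 406 (8.37%) unlisted genes with several changed exons. The 75 genes formed 77 pairs with a listed neighbour, and in 60 pairs (77.9%, 67.5 to 85.7) both differed in the same direction. Where the neighbour was higher in gold, 38 of 51 lone exons (74.5%) were higher, and where it was lower, 4 of 26 (15.4%) were higher, against 44.6% of all lone exons. Bright and dim lone exons gave similar shares, at 77.3% and 78.8%. In unlisted genes with several exons the direction was shared in 23 of 35 pairs (65.7%, 49.2 to 79.2).

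Pairs of genes with like descriptions were counted apart, a sorting chosen after the pairs were seen. In 26 of the 77 pairs the descriptions of both genes opened with the same 12 letters, a leading "putative" aside. In 25 of these the direction was the same. Pairs alike only as hypothetical proteins were counted with the other pairs. Of those, AT1G13510 (5.81 in gold, 6.99 in control) was opposite to AT1G13520 (9.77 in gold, 8.36 in control). AT3G50170 and AT4G16000 differed in the same direction as their neighbours. In the other 51 pairs it was the same in 35. The spans of the genes overlapped in 5 pairs. Whether probes for one copy also bind the transcript of its neighbour was not tested.

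Examples of pairs with a listed neighbour, chosen after their values were seen, came mostly from detoxification families. The lone exons of CYP71B20 and CYP71B22 were at 5.55 and 5.70 in gold, against 3.87 and 3.86 in control, on both sides of the listed CYP71B21, whose gene-level average was 8.14 in gold and 6.07 in control. The myrosinase-related BGLU29 was at 5.07 in gold and 3.28 in control, beside BGLU28 at 11.09 in gold and 6.78 in control. UGT74E2 had as neighbour the glycosyltransferase AT1G05675, at 6.20 in gold and 4.78 in control, a pair outside the 26 because the descriptions are worded differently. The MATE carrier AT2G04050 had TX1, at 5.06 in gold and 4.03 in control. The direction was opposite in GSTU26, a glutathione transferase, at 8.98 in gold and 10.66 in control, beside GSTU25 at 6.78 in gold and 4.40 in control. It was the single such case among the 26 pairs counted as having like descriptions. Outside those 26, the ribosomal L10a genes PGY1 (5.34 in gold, 3.79 in control) and AT2G27535 (5.04 in gold, 6.10 in control) were also opposite.

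A few lone exons were not independent entries. Both group averages of 49 lone exons were identical to those of another changed exon with a chromosome, and for 26 of them the match was another lone exon. The locus of 18 lone exons was also named by another cluster of the exon table, and the locus of 5 by a cluster of the gene-level table.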

How the data were processed

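Roots of gold-treated and control seedlings were hybridised to AraGene-1_0-st arrays, 3 per group. Per the methods, the authors summarised probes per exon and per gene with RMA in Expression Console, and the deposited log2 signals are bi-weight averages over the arrays of a group, made in the Transcriptome Analysis Console. The authors listed features past a 2-fold change with an unadjusted p-value criterion, so features that did not pass are missing. RMA brings the arrays to a common distribution and is known to compress differences at low signal. The tables also hold the authors' fold change, p-value and FDR, which are their own comparison and were not used. Genes are named by the tair10 annotation, without exon positions. Only group averages were used, so no SD, model or test was possible, and the number of arrays limits the precision.

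Differences are gold minus control. The members, gene lists and comparisons were chosen with earlier results of these data known. Groups were matched by words (Python 3 with pandas, numpy and scipy), and their patterns were corrected after the matched descriptions were read. Among exons naming 1 locus, the text names the 8 largest differences in each direction with a brighter group of at least 6, the 4 largest in each direction below 6, the 2 largest per gene group and direction at 6 or more, and the members nearest to the limits, and says where others were chosen after their values were seen. Not every gene that this rule allows is described. Gene length, transcripts and order came from the RefSeq table of TAIR10.1, whose build differs from that of the tables, so no positions are printed. Selection and neighbour steps were checked on simulated tables, and the Wilson intervals were not part of that check.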

Additional observations from a re-analysis of the deposited data

How the results depend on the processing

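All values are group averages of exons that passed the authors' criteria. No paired analysis was possible because only the average of each group was used, and for the same reason no replicate was left out. Planned shares of genes with a single annotated exon and of promoters holding ACGTG, were not run, since neither exon structures nor promoter sequences were used here.

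Including exons without a chromosome, joining by locus, leaving out exons with identical signals and keeping exons that name 1 locus left the number, shares and medians close to those of all lone exons, with 1483 exons after leaving out identical signals and 1442 with 1 locus. A 3-fold criterion left 299 exons, 43.1% with a brighter group of at least 6, and medians of 1.79 and -1.88. A brighter group of at least 6 left 875 exons with medians of 1.18 and -1.17, and of at least 7 left 547 with medians of 1.15 and -1.15. The share lower in gold stayed between 53.2% and 56.5% under all of these. With the limit for a clear signal at 5 the share of clear exons was 75.5%, and at 7 it was 35.7%. Neighbours at most 1000 bases away shared the direction in 71.4% of 35 pairs. In alternatives chosen after seeing the data, the shares lower in gold with a clear signal were 90.9% for root hair genes, 89.7% for cell division and cytoskeleton genes and 61% for protein kinases. An exon counts as clear through its brighter group alone, so these shares are no separate check on direction. In both middle classes of gene length, 48.4% of the genes had 2 or more RefSeq transcripts.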
